A study of Homo sapiens with 6 samples.

Results

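The genes described here encode 10 enzymes that make or recycle purine nucleotides. The 4 salvage enzymes are HPRT1, APRT, PNP and ADK, and the 6 enzymes of de novo synthesis are PPAT, GART, PFAS, PAICS, ADSL and ATIC. Members were found as the array's probe sets that carry a listed symbol and no other. Each of the 10 had 1 such probe set, among 33458 genes named on the array. The set was chosen by a measured value, the difference of HPRT1 between SMAD3 and control siRNA on these same arrays, and the other enzymes were added around it. The siRNA differences of the members are therefore a description, and no test of them is read as a result.

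Purines reach a cell by 2 routes. De novo synthesis builds the ring on a ribose phosphate, starting from the activated sugar PRPP and ending in IMP, from which AMP and GMP are made. Salvage joins a ready-made base to the same PRPP or phosphorylates a nucleoside, and proliferating cells use both routes. HPRT1 salvages hypoxanthine and guanine, and because it is expressed in most tissues its transcript is a common reference in quantitative PCR.

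The measurements came from Affymetrix whole-transcript arrays. The cells were TPC-1, an established human line from a papillary thyroid carcinoma. Cells received 25 pmol of an siRNA against SMAD3 (si-SMAD3) or a control siRNA (si-Control) with a lipid reagent, and RNA was taken at 24 h. There were 3 arrays in each group, 1 from each of 3 experiments run at different times, and the titles name no added TGF-beta. SMAD3 moves to the nucleus when TGF-beta or activin receptors are active and regulates transcription there. The samples came from 1 line, and all 6 arrays came from transfected cells, so an effect of transfection common to both groups cannot be seen.

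SMAD3 itself lay at log2 values of 14.20, 14.21 and 14.67 in the control arrays and at 10.58, 10.03 and 10.27 in the si-SMAD3 arrays of replicates 1, 2 and 3. It was the only gene of 20590 tested to pass the adjusted threshold of 0.05 in limma's moderated test (adjusted p = 0.000437). The thyroid transcription factor PAX8 (mean log2 value 13.63 over 6 arrays) and the keratins KRT8 (15.03) and KRT18 (13.62) were well above the filter of 3.93, which is the median over all probe sets of the mean log2 value. FOXE1 (6.98), KRT7 (7.87) and KRT19 (5.07) also lay above it. The thyroid markers TG, TSHR, SLC5A5 and NKX2-1 and the epithelial markers EPCAM and CDH1 lay below it. Of listed markers of other cell types with a probe set, 5 of 5 fibroblast, 3 of 4 immune and 1 of 4 endothelial ones passed the filter. The highest of them were LUM (8.98), CD68 (8.85) and COL1A1 (8.51). In bulk RNA, fewer cells of a type and less RNA per cell cannot be told apart.

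The promoters of HPRT1 and of the PPAT and PAICS pair are shown because HPRT1 had the largest difference of the 10 genes and because PPAT and PAICS are read in opposite directions from neighbouring starts. Both sequences are from RefSeq on GRCh38.p14, and capitals mark the GC box GGGCGG. The first holds the 250 bases before the HPRT1 start at chrX:134459915-134460164, plus strand. The second holds the 136 bases between the PPAT start on the minus strand and a PAICS start on the plus strand, at chr4:56435616-56435751, written on the plus strand.
HPRT1 promoter: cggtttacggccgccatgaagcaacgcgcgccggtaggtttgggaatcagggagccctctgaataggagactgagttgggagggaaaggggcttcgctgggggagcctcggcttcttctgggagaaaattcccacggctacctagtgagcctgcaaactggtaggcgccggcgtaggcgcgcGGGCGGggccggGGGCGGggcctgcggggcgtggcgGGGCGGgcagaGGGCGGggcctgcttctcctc
PPAT-PAICS shared promoter: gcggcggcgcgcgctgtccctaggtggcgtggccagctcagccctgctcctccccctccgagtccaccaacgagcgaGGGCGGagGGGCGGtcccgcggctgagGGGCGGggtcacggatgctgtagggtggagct

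The HPRT1 stretch held 4 GC boxes and was 68.8% G and C. The stretch between PPAT and PAICS held 3 GC boxes and was 75.0% G and C. A set of 5 short motifs was searched on both strands in windows that also take in 50 bases after each start. There were 14 such windows for 9 of the 10 genes, some of them overlapping, and 35116 over all genes. The GC box GGGCGG was present in 11 of the 14 windows, against 45.0% of all windows. The SMAD binding motif CAGAC was in 5 of the 14, those of ADK, GART and PNP, against 45.3% of all windows, and the other SMAD motif, GGCGC, in 11 of the 14, that of HPRT1 included, against 48.6%. The E-box CACGTG was in 3 of the 14, those of ATIC, PAICS and PPAT, against 7.26% of all windows. PPAT and PAICS share their E-box, since their windows overlap, and CACGTG reads the same on both strands. CCAAT was in 6 of the 14, those of ADK, GART and PNP, against 34.6% of all windows.

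HPRT1 was lower after SMAD3 knockdown in each of the 3 experiments. Its log2 values were 9.30, 9.12 and 9.94 in the control arrays of replicates 1, 2 and 3, and 8.26, 8.24 and 8.70 in the si-SMAD3 arrays. Every si-SMAD3 array lay below every control array, and the replicate 3 arrays were the highest of their groups. The means were 9.46 ± 0.43 and 8.40 ± 0.26 (SD, n = 3), a difference of -1.06 (SE 0.26) which is 2.08-fold lower on the scale of the deposited values. Within the experiments the difference was -1.04, -0.88 and -1.24. The SEs here and below are from limma's fit on the siRNA group alone, without pairing the arrays. They take in the spread between experiments. Of the 20590 genes tested, 29 had a larger decrease than HPRT1.

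**Figure D1:**
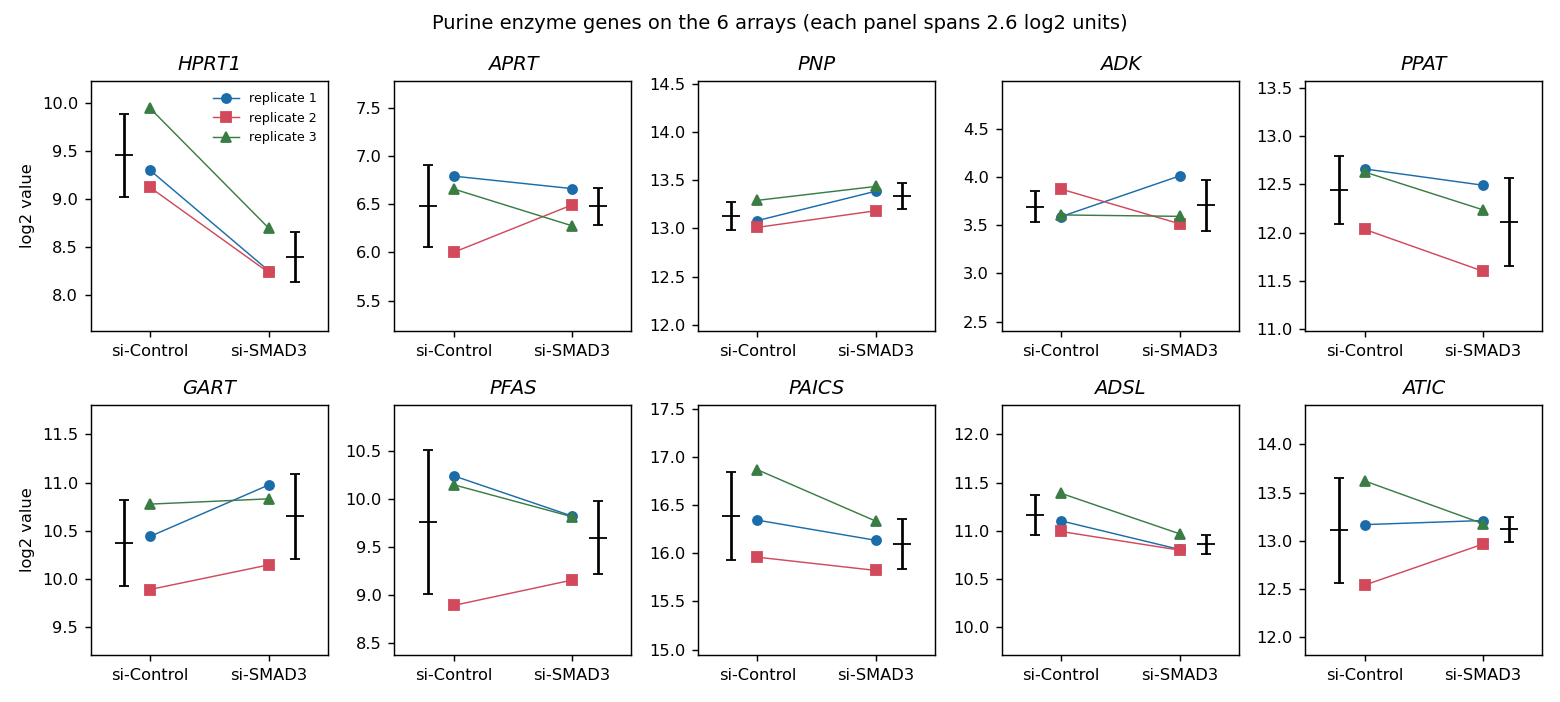
Log2 values of the 10 purine enzyme genes on the 6 arrays, with si-Control on the left and si-SMAD3 on the right of each panel; lines join the arrays of 1 replicate number, and black marks give the mean ± SD of each group (n = 3). HPRT1 is lower after SMAD3 siRNA in all 3 experiments, with means of 9.46 and 8.40, and PPAT, GART, PFAS, PAICS and ATIC have their lowest values in the replicate 2 arrays.

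The other salvage enzymes had smaller differences, of either sign. APRT, which salvages adenine, lay at 6.79, 6.00 and 6.66 in the control arrays and at 6.66, 6.49 and 6.28 in the si-SMAD3 arrays. The APRT groups overlapped, and the difference of -0.01 (SE 0.25) had both signs among the experiments. PNP, which frees bases from inosine and guanosine and so feeds HPRT1 its substrates, lay at 13.08, 13.01 and 13.29 with control siRNA and at 13.39, 13.18 and 13.44 with SMAD3 siRNA. PNP was higher in all 3 experiments, by 0.31, 0.17 and 0.14, with overlapping groups (mean difference 0.21, SE 0.18). ADK, the kinase that returns adenosine to AMP, had its only singly named probe set between 3.52 and 4.01 on the 6 arrays. This is near the floor, with a mean below the filter, so ADK was not tested. A further probe set named for ADK and a pseudogene together was not used.

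Among the de novo enzymes, the 3 that differed by most lay in the same direction as HPRT1 and by much less. PPAT, which commits PRPP to the pathway, lay at 12.66, 12.03 and 12.63 in the control arrays and at 12.49, 11.60 and 12.24 in the si-SMAD3 arrays. Its difference was -0.33 (SE 0.28), with overlapping groups and the same sign in all 3 experiments. The SD of its 3 within-experiment differences was 0.14. PAICS, which joins a carboxylase to the next ligase of the pathway, lay at 16.35, 15.96 and 16.87 against 16.14, 15.82 and 16.33. Its groups also overlapped, and the difference was -0.29 (SE 0.26). Both genes of the divergent pair shown above were lower within each experiment. The 3 differences were -0.17, -0.44 and -0.39 for PPAT and -0.21, -0.14 and -0.54 for PAICS. RefSeq also places a PAICS start inside the PPAT gene on the other strand, and whether the probe sets of the pair share positions was not tested.

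ADSL, the lyase that acts once on the way to IMP and again on the way to AMP, was the other gene with groups that did not overlap. It lay at 11.10, 10.99 and 11.39 in the control arrays and at 10.81, 10.80 and 10.97 in the si-SMAD3 arrays. The ADSL groups were parted by a narrow margin, and the difference was -0.30 (SE 0.19).

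The remaining de novo enzymes showed no common direction. GART, a protein with several catalytic steps of the pathway, lay at 10.44, 9.89 and 10.78 against 10.97, 10.14 and 10.83, and was higher in all 3 experiments (mean difference 0.28, SE 0.30). PFAS, the amidotransferase that acts between GART's steps, lay at 10.24, 8.89 and 10.15 against 9.82, 9.16 and 9.82 (difference -0.16, SE 0.37). ATIC, which completes IMP, lay at 13.17, 12.54 and 13.62 against 13.21, 12.96 and 13.18 (difference 0.01, SE 0.27). The groups overlapped for these 3 genes, and PFAS and ATIC had both signs among the experiments.

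**Figure D2:**
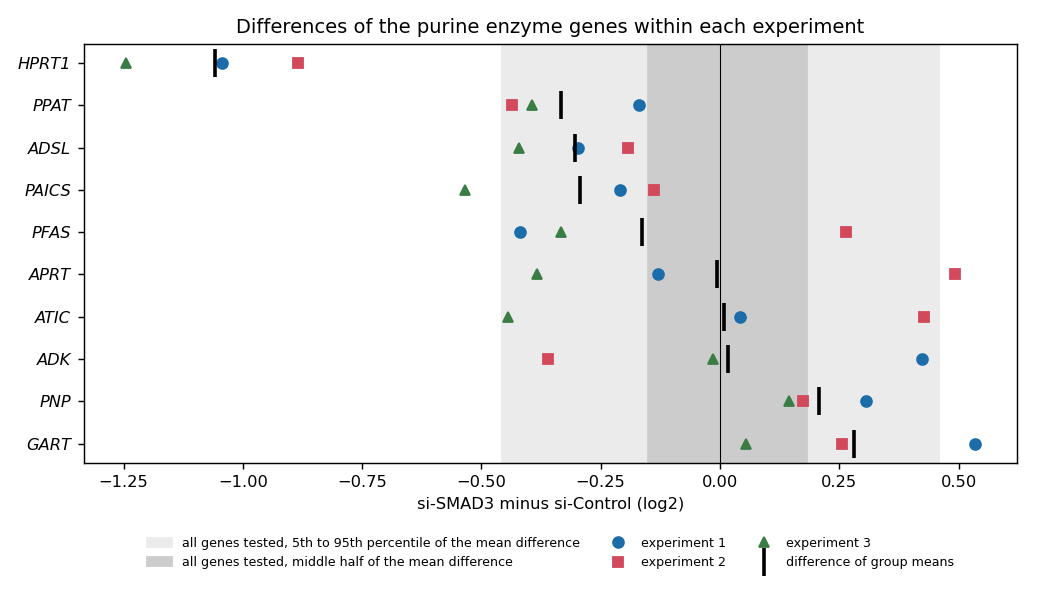
Difference of si-SMAD3 minus si-Control in log2 units for each purine enzyme gene, with 1 point per experiment and a black bar at the difference of the group means; grey bands give the spread of the mean difference over all genes tested, whose 5th and 95th percentiles were -0.46 and 0.46. Differences of single experiments spread wider over all genes tested, so the points are not to be read against the bands. For single experiments these percentiles were -0.68 and 0.75, -0.70 and 0.84, and -0.82 and 0.67 in experiments 1, 2 and 3. HPRT1 lies left of the other 9 genes in every experiment.

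Set against the other 9 enzymes, HPRT1 had the lowest difference in every experiment. The nearest other member was PFAS in experiment 1 at -0.42, PPAT in experiment 2 at -0.44 and PAICS in experiment 3 at -0.54. Minus the median difference of the others, the difference of HPRT1 was -0.91, -1.06 and -0.86 in the 3 experiments and -1.05 over the group means. The values that this comparison rests on also chose HPRT1, so it is a description only.

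Of the 9 members tested 6 differences were below 0 and 3 above, with a median of -0.16, where all genes tested had a median of 0.02 and 47.1% below 0. With ADK, which lay below the filter on low values, the median of all 10 was -0.08. The median of the 10 turned with single arrays. Leaving out the replicate 1 control array gave 0.0011, and leaving out the replicate 3 control array gave 0.0026. It was 0.02 when the replicate 2 knockdown array was left out and -0.33 when the replicate 2 control array was. There were 4 members lower in every experiment (background 13.4% of genes) and 2 higher in every experiment (background 14.5%). Groups did not overlap for 2 members, both lower, where 5.28% of all genes had non-overlapping groups with lower values after knockdown and 5.75% with higher values. No member of the 9 tested passed limma's moderated test at an adjusted p of 0.05 (background 0.00486% of genes), and 1 had an unadjusted p under 0.05 (background 5.74%). That 1 was HPRT1, which was chosen by this same contrast. Since the contrast chose the set, nothing is read from these counts.

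The genes whose 6 values followed HPRT1 most closely were not purine enzymes. Likeness was measured as the root-mean-square distance, in log2 units, between 2 genes' values after each gene's own mean was removed, over 6 arrays and 20571 genes. The nearest were the small nucleolar RNA SNORA65 (0.16), the long noncoding RNA MINCR (0.16), the interleukin 1 receptor subunit IL1RAP (0.17), TEX9 (0.18) and the RhoA regulator ARHGAP29 (0.19). The median distance over all genes was 0.65. As follows from choosing them by likeness to HPRT1, all 5 were lower in the si-SMAD3 arrays with no overlap (background 5.28%), with differences from -1.12 to -0.83, and none reached an adjusted p of 0.05 by limma. Among the members PAICS (0.40) and ADSL (0.41) were nearest, at ranks 504 and 616, and GART (0.72) was the farthest of those tested.

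For 5 of the 6 de novo enzymes the replicate 2 arrays lay further from the other arrays than the siRNA groups lay from each other. Both replicate 2 arrays held the lowest of the 6 values for PPAT, GART, PFAS, PAICS and ATIC, which are 5 of the 6 de novo enzymes. ADSL and the salvage enzymes did not show it. For HPRT1 and ADSL it could not occur, because every si-SMAD3 array lay below every control array. Across all genes tested 9.57% had both replicate 2 arrays lowest, 8.76% both replicate 1 arrays and 5.43% both replicate 3 arrays. The mean of the replicate 2 arrays minus that of the other 4 arrays was -0.98 for PFAS, -0.74 for GART, -0.69 for PPAT, -0.54 for ATIC and -0.53 for PAICS on the log2 scale. These sizes exceed the siRNA difference of each of the 5 genes. The same measure came to -0.37 for HPRT1, -0.35 for APRT, -0.20 for PNP, -0.17 for ADSL and -0.0045 for ADK. This feature of the replicate 2 arrays was looked for after the values were seen.

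**Figure D3:**
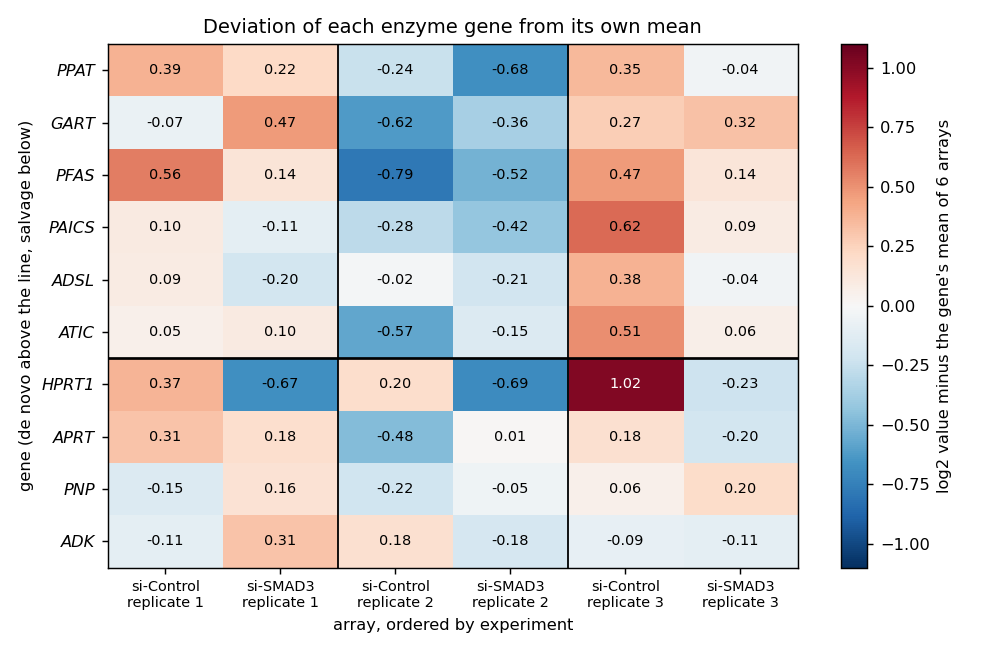
Log2 value of each purine enzyme gene minus its own mean of 6 arrays, with arrays ordered by experiment and de novo enzymes above the black line. The replicate 2 columns are negative for PPAT, GART, PFAS, PAICS and ATIC, while HPRT1 is negative in all 3 si-SMAD3 columns.

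The difference between experiments is a measure that the choice of members did not use, and it was tested with limma's moderated F test on the replicate number in a fit with the group. None of the 9 members tested passed over all genes, and neither did any other gene (background 0%). The smallest adjusted p among members was 0.48, for PFAS. At an unadjusted p under 0.05 there were 3 of 9 members, namely PFAS, GART and PPAT, where 8.24% of all genes lay under it. With an intensity trend and robust variance 29 genes passed and no member did. What differed between the replicate 2 experiment and the others is not given in the labels and was not tested.

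Other genes of nucleotide metabolism were taken from lists by role. Of 75 listed genes 67 were matched to a probe set of their own and 60 entered the test. None passed the test between siRNAs in either direction by limma (background 0.00486%), with 4 at an unadjusted p under 0.05 (background 5.74%). There were 7 at that level with the replicate number as a block in the fit, and 7 when the replicate 2 control array was left out. There were 34 differences below 0 and 26 above, with a median of -0.04, where 47.1% of all genes tested lay below 0. Groups did not overlap for 6 of the 60, 5 lower and 1 higher, where 11.0% of all genes did not overlap.

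PRPP is made by PRPS1 and PRPS2, which differed by -0.36 (SE 0.26) and -0.42 (SE 0.26), and both were lower in all 3 experiments. Their associated proteins PRPSAP1 and PRPSAP2 differed by 0.10 and 0.28. Past IMP, 5 genes were tested, and the 2 with the smallest p were ADSS1 and IMPDH2. ADSS1, an adenylosuccinate synthase, was at -0.87 (SE 0.26) and IMPDH2, the entry to GMP, at -0.32 (SE 0.22). Their adjusted p by limma were 0.80 and 0.94. The mean of ADSS1 was 4.72 with control siRNA, near the floor, and 3.86 with SMAD3 siRNA, below the filter. The difference of ADSS1 therefore rests on values near the floor. ADSS1 is among the 4 listed genes at an unadjusted p under 0.05 and the 5 with lower, non-overlapping groups. Of 20 interconversion and breakdown genes 8 lay below 0 and 12 above. SAMHD1, which degrades deoxynucleotides, was at 11.39 ± 0.31 against 10.77 ± 0.20 (SD, n = 3; difference -0.63), and NT5E, which makes adenosine outside the cell, differed by -0.34. PRTFDC1, a relative of HPRT1, was outside the rule for named genes and was named after its values were seen. It was the 1 listed gene with higher, non-overlapping groups, at a difference of 0.29.

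All 6 nucleoside and nucleobase transport genes tested lay below 0, with a median of -0.15, where 47.1% of all genes tested lay below 0. Only 2 of the 6 were lower in every experiment. SLC29A2, SLC29A3 and SLC28A3 had means of 4.06, 4.46 and 4.47 over 6 arrays, near the filter, and 2 further listed genes lay below it. The nucleobase carrier SLC43A3 differed by -0.42 (SE 0.31) and the nucleoside carrier SLC29A1 by -0.17 (SE 0.20). Of 10 genes of folate metabolism, a source of carbon units for the purine ring and thymidylate, 8 lay below 0. ALDH1L2 differed by -0.70 (SE 0.20) and the thymidylate synthase gene TYMS by -0.42 (SE 0.24). Of 10 pyrimidine genes 7 lay above 0, with TK2, the mitochondrial thymidine kinase, at 0.81 (SE 0.30) and CMPK1 at -0.33 (SE 0.19). The TK2 groups overlapped, and its difference was 1.61, 0.98 and -0.17 in experiments 1, 2 and 3. Of 5 genes of ribonucleotide reductase and deoxynucleotide supply 4 lay below 0, with DUT at -0.35 (SE 0.22) and DCTD at -0.27 (SE 0.19). None of these genes passed the adjusted test.

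Many genes of the pathway lists, like the de novo enzymes, had their lowest values in the replicate 2 experiment. Both replicate 2 arrays were lowest for 24 of the 60 genes tested, 40.0% against the background of 9.57%. This count, too, was made after the values were seen and is not independent of what the members show. These included 7 of 10 folate genes, 6 of 10 pyrimidine genes, 2 of 4 PRPP genes (PRPS1 and PRPS2) and 2 of 5 genes of the IMP branch (IMPDH2 and GMPS). In the interconversion list it was 4 of 20 and in the transport list 1 of 6. It also held for 2 of the 5 reductase and deoxynucleotide genes, RRM1 and RRM2, which cells use in S phase and whose replicate 2 arrays minus the other arrays came to -0.53 and -0.87 on the log2 scale. RRM2B, DUT and DCTD of the same list did not show it, and came to 0.22, -0.29 and -0.05. For DCTD it could not occur, because its siRNA groups did not overlap. Whether the share of cells in S phase differed in the replicate 2 experiment was not tested. In the F test between experiments, counted for these lists after the values were seen, 0 of the 60 passed and 15 had an unadjusted p under 0.05, against 8.24% of all genes.

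**Figure D4:**
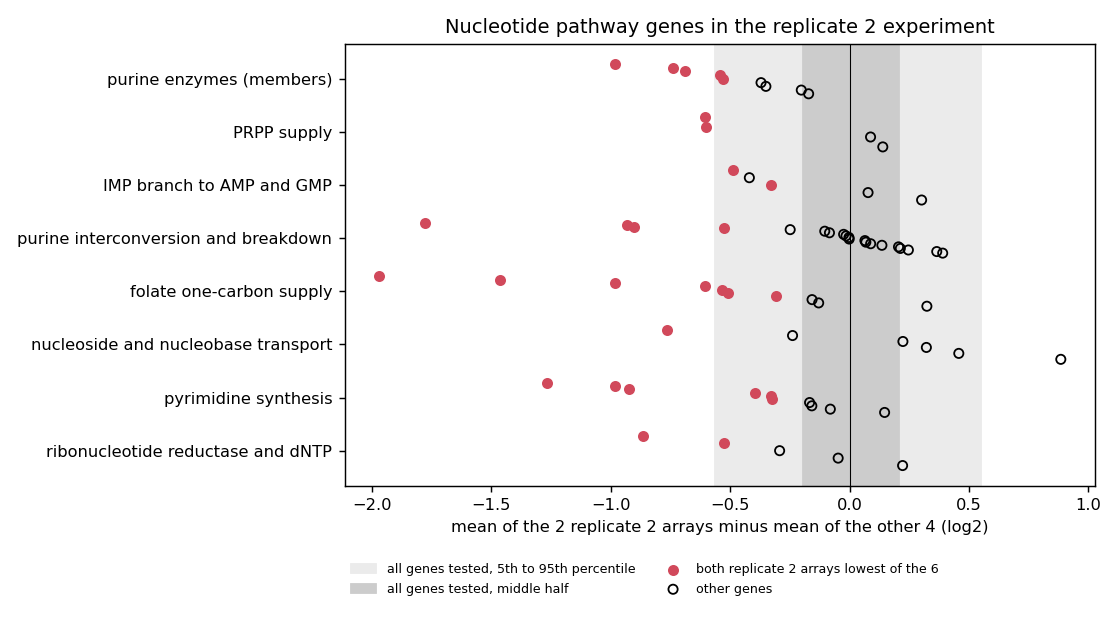
Mean of the 2 replicate 2 arrays minus the mean of the other 4 arrays in log2 units, with 1 point per gene tested and a row per list; filled points have both replicate 2 arrays lowest of the 6, and grey bands give the spread over all genes tested. Of the 60 pathway genes outside the member row 24 are filled, and the 5 filled members lie between -0.98 and -0.53.

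HPRT1 was also set beside other transcripts that laboratories use as references. Since HPRT1 was chosen by its siRNA difference, its place among them is a description only. Of 15 listed reference genes 11 were analysed. GAPDH was at the array's ceiling of 19.93 on all 6 arrays, so no change could be seen in it. Of the other 10, YWHAZ had the smallest SD over 6 arrays, 0.13, although its groups did not overlap (difference -0.24, background 5.28%). HPRT1 had the largest SD, 0.66, which includes the siRNA difference it was chosen for, and PGK1 a like one of 0.66, against a median SD of 0.29 over all genes tested. Within the groups the SD of HPRT1 was 0.43 with control siRNA and 0.26 with SMAD3 siRNA, and that of PGK1 was 0.73 and 0.56. The siRNA differences of ACTB, B2M, SDHA, GUSB and PPIA lay between -0.18 and 0.18, while those of TBP, TFRC and PGK1 were -0.47, -0.41 and -0.57. Of the 10 reference genes analysed besides HPRT1, 0 passed the adjusted test between siRNAs by limma and 0 had an unadjusted p under 0.05 (background 5.74%). GAPDH is among these 10, and its result was fixed by the ceiling.

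**Figure D5:**
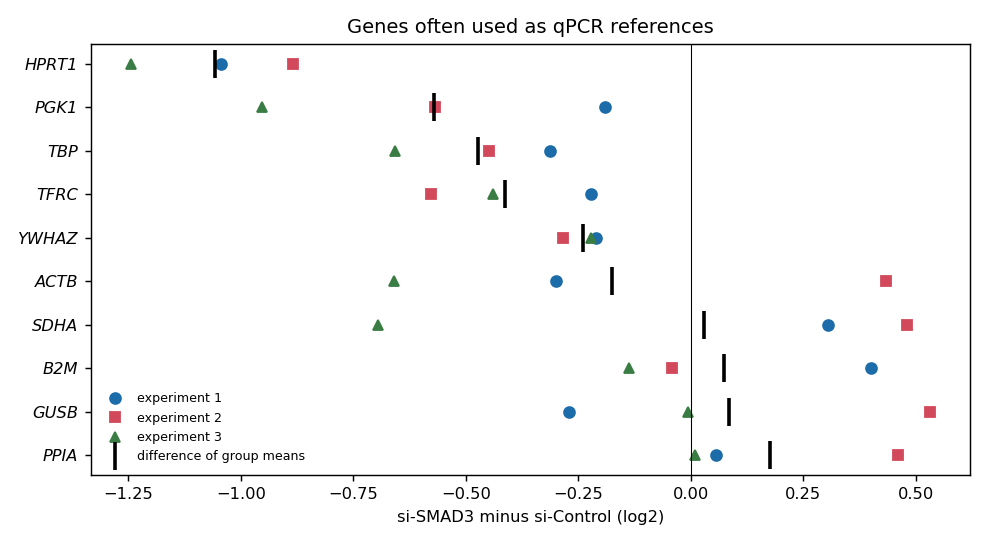
Difference of si-SMAD3 minus si-Control in log2 units for 10 reference transcripts, with 1 point per experiment and a black bar at the difference of the group means; GAPDH is left out because it was at the ceiling. HPRT1, which was chosen by this difference, lies at -1.06, and the other 9 lie between -0.57 and 0.18.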

How the data were processed

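The deposited table holds the authors' log2 values. Per the submitters' processing notes they were produced by RMA, run in Affymetrix Expression Console; versions and build: not given in the sources used here. RMA equalizes the arrays, so a change in total RNA per cell cannot be seen. Levels of different probe sets are not compared, folds keep the deposited scale, and the number of arrays limits the precision.

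Of 138745 probe sets, 36176 carried 1 symbol in the platform's table, which can be old, and symbols were updated through a RefSeq table of GRCh38.p14. The brightest probe set by 6-array mean stood for each gene, and 20590 of 33458 genes passed the filter of 3.93. The test was limma 3.58.1 in R 4.3.3 (lmFit and eBayes, 2-sided, Benjamini-Hochberg over 20590 genes), checked on simulated data. Between siRNAs the fit held the group alone, and the replicate number entered only in the alternative with a replicate block. Groups and replicate numbers came from the titles.

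The series' design text states that the replicates were made at 3 separate times, so the numbers were taken to pair the arrays. Across genes, the deviations from the group mean in arrays with the same number had correlations of 0.15, 0.22 and 0.05 for replicates 1, 2 and 3, and arrays with different numbers had -0.18 to 0.06. The value for replicate 3 lies within that range, so its pairing rests on the design text.

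Members, lists and motifs were chosen with earlier results of these data known. Named genes are the members, SMAD3, the 2 genes with the smallest p in each pathway list, the 5 genes nearest HPRT1 in profile and the reference genes with the smallest and largest SD. Others were named after their values were seen. List genes without a probe set of their own were not analysed here. Alternatives were variance moderation, the replicate block, the filter, the probe sets, centring and leaving out each array.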

Additional observations from a re-analysis of the deposited data

How the results depend on the processing

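HPRT1 was lower after knockdown under every setting run. Its difference lay between -1.22 and -0.81 with each array left out in turn. Its distance from the median of the other enzymes lay between -1.19 and -0.84 in the same runs and was -0.97 without ADK, a choice made after seeing the data. The median of the 10 members lay between -0.333 and 0.022 with arrays left out, so it has no settled sign. Single members moved with 1 array. Without si-SMAD3 replicate 2, PPAT was at -0.08 and GART at 0.53. Without si-Control replicate 2, PFAS was at -0.60, PAICS at -0.51 and PPAT at -0.54. Without si-Control replicate 3, PAICS was at -0.06 and ADSL at -0.19. Between siRNAs 1 gene passed, 5 with an intensity trend and robust variance, 0 with the unmoderated statistic (1133 at an unadjusted p under 0.05), 3 with arrays centred on their medians and 1 with the replicate block. The block changed no call. Between experiments 0 genes passed by limma (1696 at an unadjusted p under 0.05), 29 with the intensity trend and 0 to 6 with arrays left out. No member passed in any of these fits that tested it, and no pathway gene passed between siRNAs. For the members nothing is read from the fits between siRNAs, because that contrast chose the set. Between experiments, counted after seeing the data, 1 pathway gene, MTHFD2, passed with the intensity trend and again without si-Control replicate 2, and 0 passed in the other fits. Pathway genes at an unadjusted p under 0.05 between siRNAs numbered 4, against 7 with the replicate block and 3 to 7 with arrays left out, 7 being without si-Control replicate 2. With 3 arrays a group, small differences in single genes are mostly not detectable.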

Other observations

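The genes named here were chosen after their values were seen. In the folate list the mitochondrial dehydrogenase gene MTHFD2 varied most with the experiment. It lay at 13.96, 11.56 and 12.94 in the control arrays of replicates 1, 2 and 3, and at 13.68, 10.95 and 12.31 in the si-SMAD3 arrays, and the mean of the replicate 2 arrays minus that of the others was -1.97 on the log2 scale. The folate carrier gene SLC19A1 lay at 10.95, 9.18 and 11.06 against 11.04, 9.81 and 10.76. CAD, which starts pyrimidine synthesis, lay at 8.08, 6.34 and 7.96 against 7.79, 7.13 and 8.18. MTAP, which salvages the purine of methylthioadenosine, lay at 11.08, 9.94 and 11.16 against 11.22, 10.53 and 11.19. In each of these genes both replicate 2 arrays were the lowest, and the siRNA groups overlapped.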
